A study of Mus musculus with 8 samples.

Results

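The p53 target genes are 32 mouse genes that the tumour suppressor p53 is known to activate. They were chosen by name from the literature, with earlier results of these data known. All 32 were among the 24421 gene symbols of the count table. RNA sequencing of bone marrow cells transformed by MLL-AF10, a leukaemia fusion protein, gave gene counts in 4 groups of 2 libraries. MATIP cells carry MLL-AF10, Tip60 flox/flox and Cre-ERT2, a recombinase switched on by 4-hydroxytamoxifen (4-OHT), and were kept for 4 days with 100 nM 4-OHT or with its solvent ethanol (EtOH). MAflox cells, described in the labels only as MLL-AF10 flox cells with no mention of Cre-ERT2, had the same 2 treatments. Both lines are of strain C57BL/6 and grew in methylcellulose supplied with GM-CSF, SCF and IL-3, so these cytokines are common to all groups. Both were transformed by MLL-AF10, but the label of MAflox cells does not say what is floxed. Whether the fusion stays intact in MAflox cells with 4-OHT is therefore not known here. The labels do not say what the replicate numbers stand for, whether a line is 1 clone or whether each library is a culture of its own. The p-values below rest on the spread between 2 libraries a group, which may be purely technical.

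The transcription factor p53 is held low in growing cells by the ubiquitin ligase Mdm2 and is stabilised by DNA damage and other stresses. It binds paired copies of a short DNA motif and raises genes that stop the cell cycle, repair DNA, restrain growth or start apoptosis, and Mdm2 itself, which closes a feedback loop. Tip60, the acetyltransferase encoded by Kat5, is known to acetylate p53 and to act in the DNA damage response. Several p53 targets, among them Btg2, Plk2, Gdf15 and Sesn2, are also known to answer to growth factor or amino acid stress signals without p53.

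Since p53 acts through the DNA it binds, the promoters of the members were read. RefSeq windows of 300 bases on GRCm38.p6, from 250 before to 50 after an annotated start, were found for 25 of the 32 members. An exact match to the p53 half-site, a palindromic motif of 10 letters that reads alike on both strands, stood in a window of 10 of the 25 members (40.0%), against 8.31% of the 10391 tested genes with a window. A gene with several windows counts if any of them matches. By window the share was 27.5% of the 40 windows of members, against 8.36% of all 32851 windows, those of untested genes included. No member had 2 exact half-sites within 13 bases of each other, the arrangement of a full site, and 0.0481% of tested genes had one. A site with any mismatched letter was not counted, so a window without a match may still hold a p53 site. A window of Bbc3 holds ctgcaagccccgacttgtcc, 2 adjacent stretches that miss the motif only in outer letters. The 4 windows shown are those of the best known feedback and death genes among the 10, with the half-site in capitals.
Mdm2, chr10:117710709-117711008, minus strand: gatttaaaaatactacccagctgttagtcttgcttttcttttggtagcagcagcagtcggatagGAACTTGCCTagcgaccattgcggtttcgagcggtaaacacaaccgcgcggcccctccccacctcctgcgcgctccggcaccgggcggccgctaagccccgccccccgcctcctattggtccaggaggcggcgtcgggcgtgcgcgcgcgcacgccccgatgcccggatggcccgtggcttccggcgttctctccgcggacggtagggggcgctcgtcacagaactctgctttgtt
Ccng1, chr11:40755237-40755536, minus strand: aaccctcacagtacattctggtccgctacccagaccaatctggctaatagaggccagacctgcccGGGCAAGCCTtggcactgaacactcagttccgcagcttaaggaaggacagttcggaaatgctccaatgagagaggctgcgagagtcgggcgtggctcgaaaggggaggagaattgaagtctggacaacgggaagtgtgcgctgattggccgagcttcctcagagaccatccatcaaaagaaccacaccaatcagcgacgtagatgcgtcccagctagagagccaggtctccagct
Bax, chr7:45466849-45467148, minus strand: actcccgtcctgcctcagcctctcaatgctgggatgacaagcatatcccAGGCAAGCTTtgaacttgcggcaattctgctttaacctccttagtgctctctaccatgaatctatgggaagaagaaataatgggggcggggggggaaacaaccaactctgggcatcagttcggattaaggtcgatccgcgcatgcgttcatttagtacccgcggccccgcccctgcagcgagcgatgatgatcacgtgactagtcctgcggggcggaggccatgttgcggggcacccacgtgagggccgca
Ei24, chr9:36797285-36797584, minus strand: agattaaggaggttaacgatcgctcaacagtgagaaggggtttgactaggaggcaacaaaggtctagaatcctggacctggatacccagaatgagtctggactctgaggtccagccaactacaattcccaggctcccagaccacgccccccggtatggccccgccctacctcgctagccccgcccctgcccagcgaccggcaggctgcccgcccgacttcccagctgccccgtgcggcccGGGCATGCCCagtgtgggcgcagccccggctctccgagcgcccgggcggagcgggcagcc

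The half-site began 186 bases before the start in Mdm2, 185 before it in Ccng1, 201 before it in Bax and 10 before it in Ei24. The other members with a match were Abhd4, Aen, Ddit4l, Gtse1, Polk and Sesn1. The inducible promoter of Mdm2 is known to lie in its intron, outside this window, so a window speaks only for its own letters. A match is a description and not evidence of binding.

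**Figure D1:**
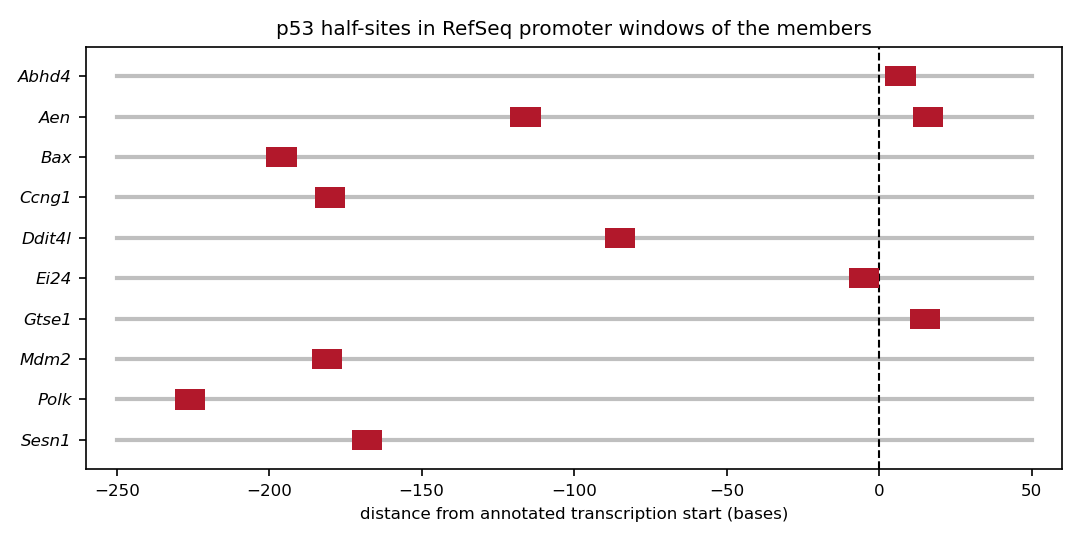
Position of exact p53 half-site matches (red boxes, 10 bases long) relative to the annotated transcription start (dashed line at 0) in the RefSeq windows (grey lines, 300 bases) of the 10 members that have one. Both boxes of Aen are 1 site seen from its 2 annotated starts, and the sites of the other 9 members begin between 231 bases before and 10 bases after a start.

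Levels below are CPM, the counts of a gene per 1000000 counts of its library, after scaling by TMM factors. Log2 fold changes carry the standard error (SE) of an edgeR quasi-likelihood fit to all 8 libraries, and a gene is said to rise or fall where its p, adjusted by Benjamini-Hochberg over 13722 genes, was under 0.05. The libraries held 41101309 to 57312490 counts. Kat5, floxed in MATIP cells, stood at 8.11 and 8.32 CPM in MATIP 4-OHT and at 41.1 and 41.2 CPM in MATIP EtOH, and at 57.5 and 62.5 CPM in MAflox 4-OHT against 43.7 and 41.2 CPM in MAflox EtOH. All 8 markers listed for MLL-fusion progenitors had counts in every group, with a summed level of 3552 to 3764 CPM in MATIP 4-OHT, 12475 to 12854 CPM in MATIP EtOH, 6432 to 6476 CPM in MAflox 4-OHT and 7423 to 7539 CPM in MAflox EtOH. Mpo and Elane, enzymes of neutrophil granules, made up most of these sums. With 4-OHT 7 of the 8 fell and Kit rose in MATIP cells, and in MAflox cells 6 fell, among them Meis1 (log2 −2.24), Cd34 (−2.30), Flt3 (−3.50) and Mpo (−1.44), Elane rose (1.20) and Kit did not pass. Erythroid, lymphoid, mast cell and eosinophil markers summed to at most 79.2 CPM per list in any library, and Cd3e, Pax5, Cd8a and Ncr1 were at 0 counts in every library.

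Of the 32 members 29 passed the count filter. In MATIP cells 20 of these 29 rose with 4-OHT, 7 fell and 2 did neither. Of all tested genes 76.1% changed there, 37.5% up and 38.6% down. In MAflox cells 19 of 29 rose, 6 fell and 4 did neither, where 65.2% of all tested genes changed, 33.1% up and 32.1% down. The median log2 change of the 29 was 0.69 in MATIP and 0.41 in MAflox cells, where that of all tested genes was 0.00 and 0.02. Rises of at least 2-fold were seen in 12 members in MATIP cells (22.6% of tested genes) and in 8 in MAflox cells (13.7% of tested genes). Falls of at least 2-fold were seen in 1 member in MATIP cells, Xpc (14.1% of tested genes), and in 0 in MAflox cells (8.29%). In both lines 13 members rose and 3 fell (Aen, Gtse1 and Sesn1), while 7 called in both lines moved in opposite directions. Of all tested genes 20.3% rose and 21.2% fell in both lines, and 12.1% moved in opposite directions.

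The split depends on the level from which fold changes are counted. Fold changes were smoothed on transcript length and GC content over all tested genes. Removing this smooth together with its mean, which was 0.47 in MATIP and 0.24 in MAflox cells on the log2 scale, left 14 members higher and 10 lower in MATIP cells and 14 higher and 8 lower in MAflox cells. Relative to that mean, Abhd4 (−0.25), Bax (−0.67) and Ei24 (−0.38) were lower in MATIP cells and Ei24 (−0.18) was lower in MAflox cells, all past the threshold. A loess trend removed without its level, a form chosen after those values had been seen, left 19 higher and 7 lower in MATIP cells and 20 higher and 4 lower in MAflox cells. Shares of all tested genes under these removals are not given here. Whether the members differ from other genes there cannot be read from these counts.

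These shifts came in populations whose maturation markers also moved. The 12 mature neutrophil markers all had counts in every group and summed to 35526 to 39108 CPM in MATIP 4-OHT, 786 to 929 CPM in MATIP EtOH, 51107 to 54726 CPM in MAflox 4-OHT and 230 to 234 CPM in MAflox EtOH. Monocyte and macrophage markers summed to 26716 to 27781 CPM in MATIP 4-OHT, 724 to 760 CPM in MATIP EtOH, 5844 to 5946 CPM in MAflox 4-OHT and 451 to 476 CPM in MAflox EtOH, from 11, 10, 9 and 9 of 12 markers with counts. C1qa was at 0 in all 4 groups. Stromal and endothelial markers summed to 290 to 316 CPM in MATIP 4-OHT, 73.9 to 79.9 CPM in MATIP EtOH, 70.7 to 82.2 CPM in MAflox 4-OHT and 90.1 to 92.9 CPM in MAflox EtOH. The MATIP 4-OHT sum was mainly Vwf, at 258 and 232 CPM there against 4.09 and 2.68 CPM in MATIP EtOH. Col1a1 (log2 5.12), Cdh5 (6.66) and Pdgfrb (1.46) also rose in MATIP cells, while Pecam1 fell (−0.49). In MAflox cells Col1a1 (5.48) and Vwf (1.45) rose, Pdgfrb (−3.24) and Pecam1 (−0.33) fell and Cdh5 did not pass. Col1a1, Cdh5 and Pdgfrb were at no more than 4.4 CPM in any library. Col1a2 and Col3a1 were at or near 0 and Dcn was at 0 in every library. The part of these cell types in the results that follow was not tested. In bulk RNA, fewer cells of a type and less RNA per cell cannot be told apart.

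**Figure D2:**
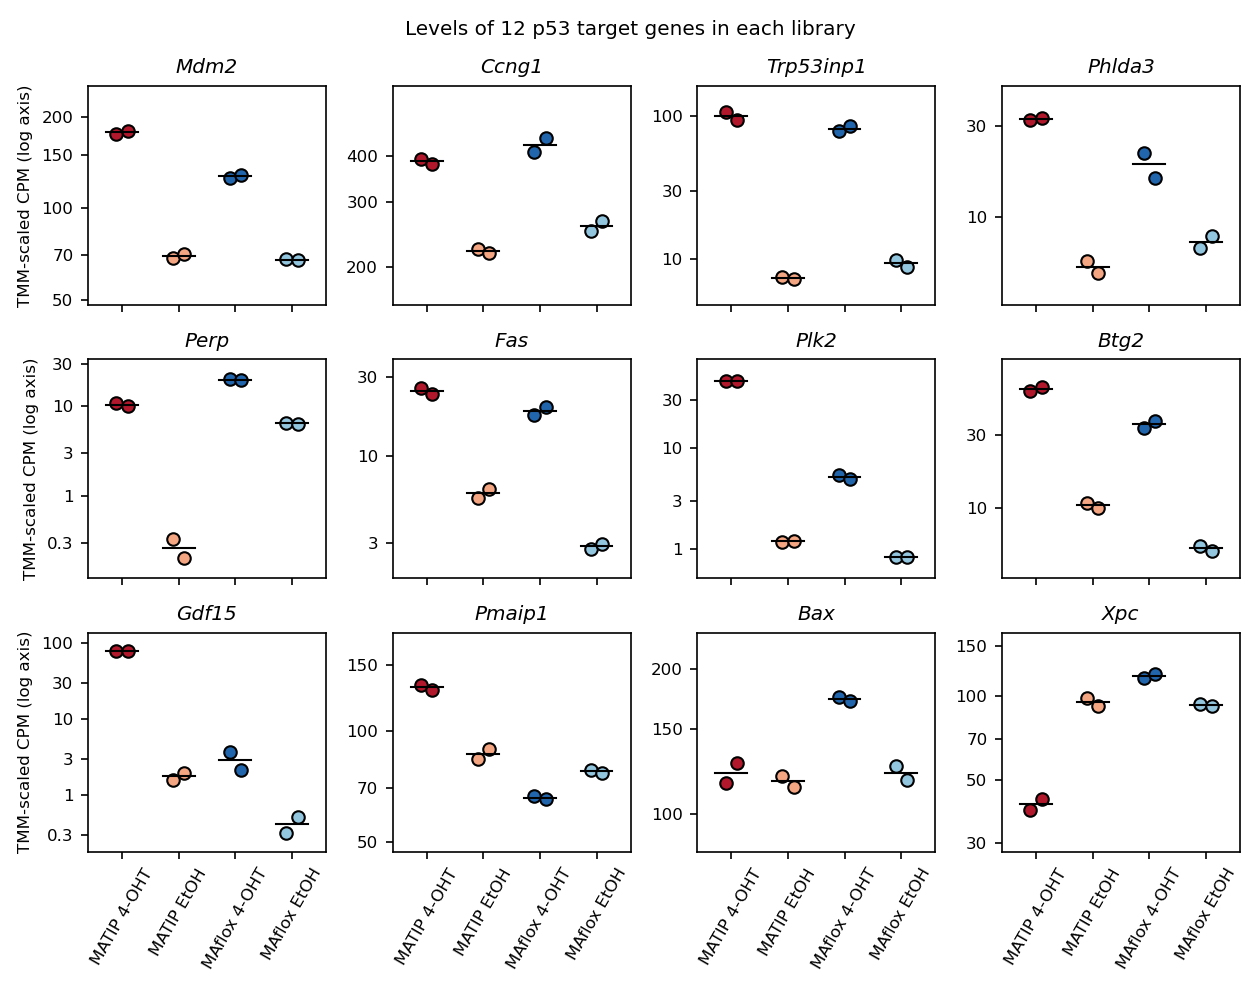
TMM-scaled CPM (log axis) of 12 members in each library, with points for the 2 libraries of a group and a line at their mean. The 4-OHT libraries lie above the EtOH libraries of their line in 9 panels, while Pmaip1 and Xpc move opposite ways in the 2 lines and the Bax libraries overlap in MATIP cells.

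Feedback genes were led by Mdm2, the ubiquitin ligase that marks p53 for degradation. It was at 175 and 180 CPM in MATIP 4-OHT against 68.8 and 70.8 CPM in MATIP EtOH, and at 126 and 129 CPM in MAflox 4-OHT against 67.9 and 67.4 CPM in MAflox EtOH. The groups did not overlap in either line, and the EtOH libraries of the 2 lines lay between 67.4 and 70.8 CPM. Mdm2 rose by a log2 change of 1.35 ± 0.06 in MATIP cells (adjusted p = 5.84e-14) and 0.91 ± 0.06 in MAflox cells (adjusted p = 4.27e-11), and the responses differed by 0.43 ± 0.08 (adjusted p = 0.000108). Ccng1, cyclin G1, which recruits a phosphatase to Mdm2, had 393 and 381 CPM in MATIP 4-OHT against 224 and 218 CPM in MATIP EtOH, and 410 and 447 CPM in MAflox 4-OHT against 250 and 266 CPM in MAflox EtOH. Its rise was 0.81 ± 0.06 in MATIP and 0.73 ± 0.06 in MAflox cells, and the difference of 0.08 ± 0.08 did not pass (adjusted p = 0.427).

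Fbxw7, the substrate receptor of a ubiquitin ligase that degrades cyclin E and MYC, went in opposite directions. Its level was 23.9 and 23.1 CPM in MATIP 4-OHT against 16.5 and 12.9 CPM in MATIP EtOH, and 9.34 and 9.83 CPM in MAflox 4-OHT against 14.2 and 14.9 CPM in MAflox EtOH. The log2 change was 0.69 ± 0.11 in MATIP and −0.60 ± 0.12 in MAflox cells, and both passed. The MATIP rise was lost with the smooth and its mean removed (log2 0.24, adjusted p = 0.0595). Trp73, the gene of the p53 relative p73, had 0 counts in all 8 libraries. This allows a level of up to 0.0523 to 0.073 CPM depending on the library (3 counts over the library total without TMM scaling, counting error only).

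Among death genes the largest fold rises were those of Perp and Trp53inp1 in MATIP cells and of Trp53inp1 and Fas in MAflox cells. Perp, a membrane protein of cell junctions needed for some forms of p53-dependent apoptosis, was at 10.8 and 10.2 CPM in MATIP 4-OHT against 0.326 and 0.201 CPM in MATIP EtOH. Its MAflox levels were 20.1 and 19.7 CPM with 4-OHT against 6.54 and 6.38 CPM with EtOH. The MATIP EtOH libraries were thus the lowest of the 4 groups, with 15 and 12 counts, while the MATIP 4-OHT level stayed under that of MAflox 4-OHT. Perp rose 40.5-fold in MATIP (log2 5.34 ± 0.21) and 3.08-fold in MAflox cells (1.62 ± 0.13), and the responses differed by 3.72 ± 0.27 (adjusted p = 5.98e-10). Trp53inp1, a stress protein that joins p53 in nuclear bodies and acts in autophagy, had 107 and 94.8 CPM in MATIP 4-OHT against 7.5 and 7.32 CPM in MATIP EtOH. Its MAflox levels were 79.1 and 85.4 CPM with 4-OHT against 9.95 and 8.81 CPM with EtOH. The fold was 13.6 in MATIP (log2 3.77 ± 0.09, adjusted p = 1.26e-17) and 8.79 in MAflox cells (3.14 ± 0.09, adjusted p = 3.88e-16), the smallest p among members in each line.

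Phlda3, a PH-domain protein that keeps the survival kinase AKT off the membrane, was at 32.5 and 33.4 CPM in MATIP 4-OHT against 5.85 and 5.04 CPM in MATIP EtOH. In MAflox 4-OHT it was at 21.8 and 16.1 CPM, against 6.9 and 7.9 CPM in MAflox EtOH. The rise was 2.60 ± 0.14 in MATIP and 1.36 ± 0.13 in MAflox cells, a difference of 1.25 ± 0.19 (adjusted p = 1.26e-05). Fas, the death receptor for Fas ligand, had 25.7 and 23.8 CPM in MATIP 4-OHT against 5.59 and 6.38 CPM in MATIP EtOH, and 17.7 and 19.7 CPM in MAflox 4-OHT against 2.75 and 2.98 CPM in MAflox EtOH. It rose by 2.04 ± 0.12 in MATIP and by 2.70 ± 0.13 in MAflox cells, so that MATIP had the higher level and MAflox the larger fold. Their difference of −0.66 ± 0.18 passed (adjusted p = 0.00333) but not with a replicate block and the loess trend on length and GC removed (adjusted p = 0.0532) or the smooth and its mean removed (0.0534).

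Members of the BCL2 family moved less. Bbc3, the BH3-only protein PUMA, was at 12.3 and 11.3 CPM in MATIP 4-OHT against 8.09 and 7.45 CPM in MATIP EtOH, and at 14.7 and 12.8 CPM in MAflox 4-OHT against 8.45 and 9.04 CPM in MAflox EtOH. It rose by 0.60 ± 0.13 in MATIP and by 0.65 ± 0.13 in MAflox cells. With the smooth and its mean removed the MATIP value was −0.06 (adjusted p = 0.676). Pmaip1, the BH3-only protein NOXA, rose in MATIP cells, where it had 133 and 129 CPM with 4-OHT against 83.8 and 89.2 CPM with EtOH (log2 0.60 ± 0.06). In MAflox cells Pmaip1 fell, with 66.7 and 65.3 CPM with 4-OHT against 78.3 and 77.1 CPM with EtOH (log2 −0.23 ± 0.06), and the responses differed by 0.83 ± 0.08 (adjusted p = 6.31e-08). Bax, which forms pores in the outer mitochondrial membrane, had 116 and 128 CPM in MATIP 4-OHT against 120 and 114 CPM in MATIP EtOH. These libraries overlapped, and the log2 change of 0.06 ± 0.06 did not pass (adjusted p = 0.349). On leaving out replicate 1 of MATIP 4-OHT it was 0.17 (adjusted p = 0.041). In MAflox cells Bax rose, to 175 and 172 CPM with 4-OHT against 126 and 118 CPM with EtOH (log2 0.51 ± 0.06), a rise lost with the smooth and its mean removed (0.05, adjusted p = 0.53).

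Zmat3, an RNA-binding zinc finger protein that acts in splicing, had 36.3 and 36.1 CPM in MATIP 4-OHT against 16.2 and 15 CPM in MATIP EtOH, a rise of 1.22 ± 0.10. Its MAflox libraries overlapped, at 15.3 and 15.8 CPM with 4-OHT and 18.9 and 15 CPM with EtOH (log2 −0.12 ± 0.11, adjusted p = 0.355). That MAflox value was 0.06 without MAflox EtOH replicate 1 (adjusted p = 0.702), −0.28 without MAflox EtOH replicate 2 (adjusted p = 0.0443), 0.38 with the loess trend removed (adjusted p = 0.00402) and 0.22 with the smooth and its mean removed (adjusted p = 0.0748), so no direction is given. Aen, an exonuclease of apoptosis, fell in both lines, to 24.6 and 26.9 CPM in MATIP 4-OHT against 53.6 and 48.4 CPM in MATIP EtOH (log2 −0.98 ± 0.08). In MAflox cells it was at 35.8 and 39 CPM with 4-OHT against 47.5 and 46.5 CPM with EtOH (log2 −0.33 ± 0.08), a call lost with the loess trend removed (log2 −0.06, adjusted p = 0.563).

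The other death genes changed by small amounts. Apaf1, the scaffold of the apoptosome, rose in MAflox cells (123 and 124 CPM with 4-OHT against 97.8 and 106 CPM with EtOH, log2 0.28 ± 0.06). In MATIP cells it had 119 and 122 CPM with 4-OHT against 126 and 142 CPM with EtOH (log2 −0.15 ± 0.06, adjusted p = 0.0389). That fall was lost in DESeq2 (adjusted p = 0.307), with RLE factors, with no count filter and in a fit to the 4 MATIP libraries. It was also lost without MATIP 4-OHT replicate 1 (adjusted p = 0.317) or 2 (0.145), MATIP EtOH replicate 2 (0.395), or MAflox 4-OHT replicate 1 (0.116) or 2 (0.114).

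Ei24, a membrane protein of the endoplasmic reticulum that acts in autophagy, had 84.6 and 88.2 CPM in MATIP 4-OHT against 83.8 and 80 CPM in MATIP EtOH (log2 0.08 ± 0.06, adjusted p = 0.24). It passed there with RLE factors (log2 0.15, adjusted p = 0.027) and in DESeq2 (adjusted p = 0.032). In MAflox cells it rose, to 104 and 109 CPM with 4-OHT against 88.3 and 90 CPM with EtOH (log2 0.25 ± 0.06). Both values were negative with the smooth and its mean removed (−0.38 in MATIP and −0.18 in MAflox cells). Tnfrsf10b, the mouse TRAIL receptor, had 9.84 and 9.33 CPM in MATIP 4-OHT against 6.79 and 8.51 CPM in MATIP EtOH (log2 0.32 ± 0.13, adjusted p = 0.0381). Its MAflox levels were 12.6 and 11.7 CPM with 4-OHT against 9.06 and 9.19 CPM with EtOH (log2 0.41 ± 0.13, adjusted p = 0.0106). The MATIP call was lost with the loess trend removed (adjusted p = 0.0846) and on leaving out MATIP 4-OHT replicate 1 (0.102), MATIP 4-OHT replicate 2 (0.0524) or MATIP EtOH replicate 1 (0.33), and the MAflox call without MAflox 4-OHT replicate 1 (0.0699). With the smooth and its mean removed Tnfrsf10b was at −0.06 in MATIP (adjusted p = 0.702) and 0.16 in MAflox cells (adjusted p = 0.295). Eda2r, a receptor for an ectodysplasin isoform, was under the count filter with 8 and 0 counts in MATIP 4-OHT, 2 and 10 in MATIP EtOH, 3 and 12 in MAflox 4-OHT and 0 and 2 in MAflox EtOH.

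**Figure D3:**
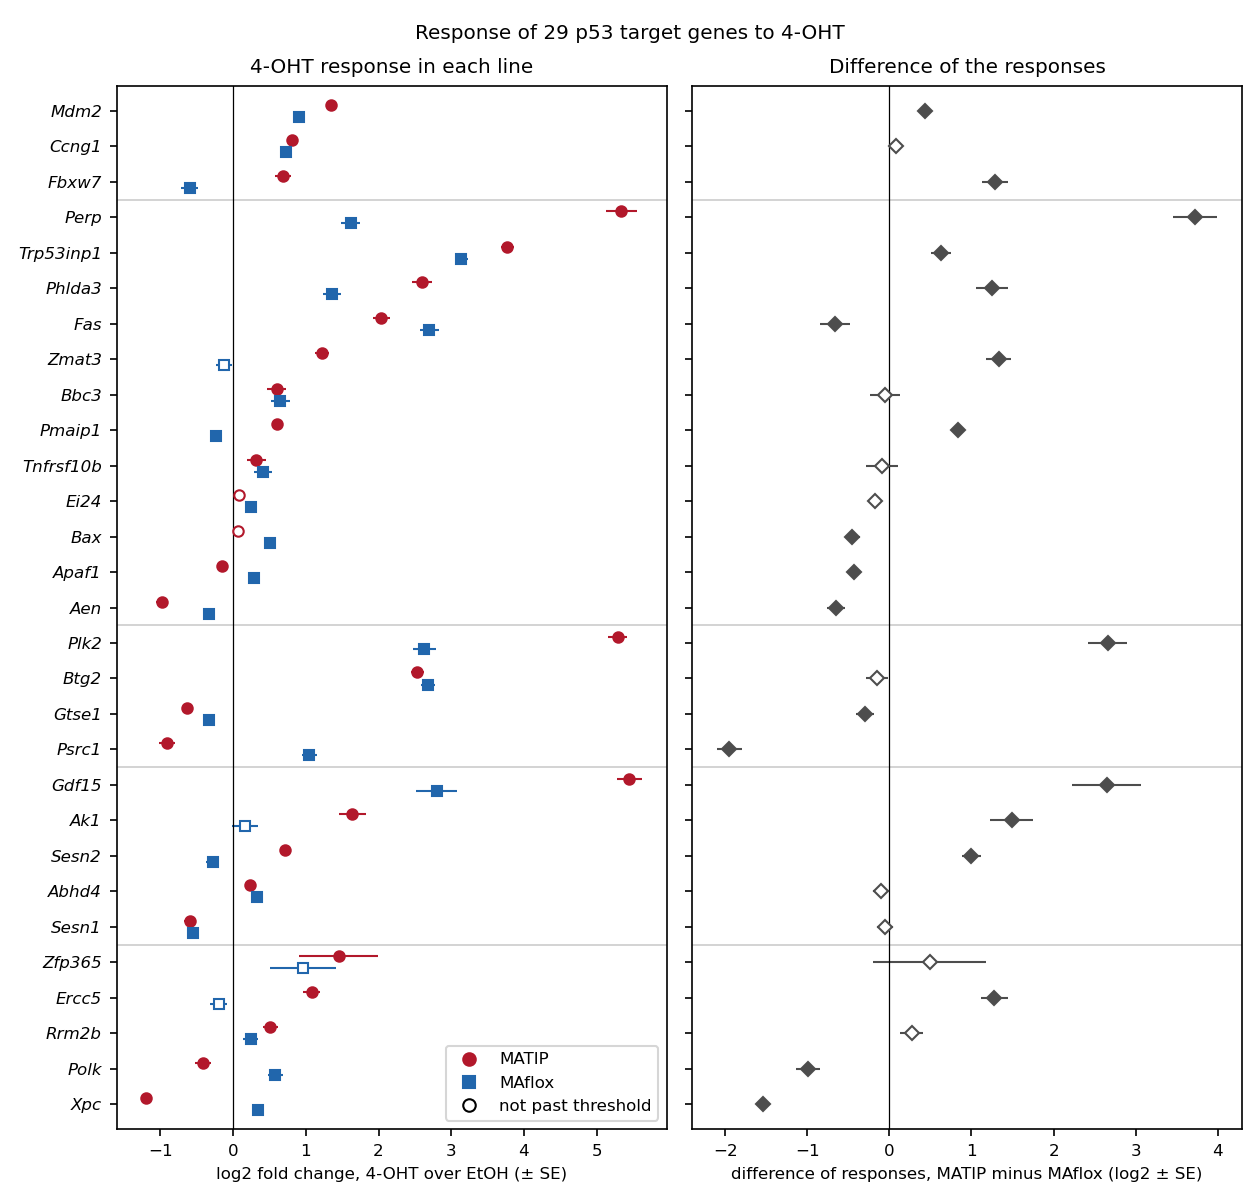
Log2 fold changes of 4-OHT over EtOH (left, MATIP as circles above MAflox as squares) and their difference, MATIP minus MAflox (right), for the 29 tested members, with bars of 1 SE and open symbols where the adjusted p missed 0.05. Grey lines part the roles from top to bottom: feedback, cell death, growth arrest, metabolism with the secreted factor Gdf15, and DNA repair. Differences run from −1.95 for Psrc1 to 3.72 for Perp.

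Of the 4 growth arrest genes, 2 rose and 2 fell in MATIP cells, where 37.5% of all tested genes rose and 38.6% fell. In MAflox cells 3 of the 4 rose and 1 fell, where 33.1% of all tested genes rose and 32.1% fell. Plk2, a polo-like kinase induced by growth factors and by p53, was at 46.6 and 46.9 CPM in MATIP 4-OHT against 1.17 and 1.21 CPM in MATIP EtOH. MAflox cells had 5.37 and 5 CPM with 4-OHT against 0.84 and 0.836 CPM with EtOH. MATIP 4-OHT thus stood far above the other 3 groups, a rise of 39.1-fold (log2 5.29 ± 0.13) against 6.17-fold in MAflox cells (2.63 ± 0.16), with a difference of 2.66 ± 0.24 (adjusted p = 1.28e-08). Btg2, an antiproliferative adaptor of mRNA deadenylation, had 58.5 and 62.2 CPM in MATIP 4-OHT against 10.9 and 10 CPM in MATIP EtOH, and 33.6 and 36.9 CPM in MAflox 4-OHT against 5.72 and 5.28 CPM in MAflox EtOH. Its rise was 2.53 ± 0.09 in MATIP and 2.68 ± 0.10 in MAflox cells, and the difference of −0.15 ± 0.13 did not pass (adjusted p = 0.339).

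Plk2 and Btg2 were also the only members whose window held the cyclic AMP response element TGACGTCA, which reads alike on both strands. It was in windows of 2 of 25 members (8%) and of 3.55% of tested genes, and in neither gene did it overlap an exact p53 half-site, which both windows lacked. The element was chosen after the data were seen. A match is a description, and whether the element acts on either gene was not tested. The 2 windows are shown with the element in capitals, 62 bases before the start of Plk2 and 166 before that of Btg2.
Plk2, chr13:110394794-110395093, plus strand: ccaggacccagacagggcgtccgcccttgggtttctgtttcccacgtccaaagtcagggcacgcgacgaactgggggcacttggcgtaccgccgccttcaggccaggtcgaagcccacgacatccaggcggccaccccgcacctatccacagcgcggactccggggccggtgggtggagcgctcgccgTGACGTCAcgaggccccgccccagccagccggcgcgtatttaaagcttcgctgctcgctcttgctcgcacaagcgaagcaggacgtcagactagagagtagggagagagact
Btg2, chr1:134079106-134079405, minus strand: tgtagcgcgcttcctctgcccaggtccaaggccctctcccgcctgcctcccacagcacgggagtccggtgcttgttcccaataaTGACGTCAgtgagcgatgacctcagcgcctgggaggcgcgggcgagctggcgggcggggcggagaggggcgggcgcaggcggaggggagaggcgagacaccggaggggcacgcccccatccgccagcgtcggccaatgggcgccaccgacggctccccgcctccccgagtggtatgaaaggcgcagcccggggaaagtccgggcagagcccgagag

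Of the other motifs searched on both strands, the AP-1 site TGANTCA was in windows of Ak1 and Fas (8% of members, 6.52% of tested genes). The form TTTGAA of the cell cycle genes homology region (CHR) was in windows of Aen, Bax, Ercc5, Fas and Gdf15 (20% of members, 14.6% of tested genes). Gtse1 and Psrc1, which are expressed with the cell cycle, held none of these 3 motifs, which says only that these exact letters are not in the windows. Both Psrc1 windows hold TTCGAA, which differs from TTTGAA by a letter and was not searched, so a CHR in Psrc1 is not excluded.

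Gtse1, a microtubule protein of dividing cells that also restrains p53, fell in both lines. It had 39.5 and 38.9 CPM in MATIP 4-OHT against 62.3 and 59.1 CPM in MATIP EtOH (log2 −0.63 ± 0.08), and 52.5 and 48.7 CPM in MAflox 4-OHT against 59.3 and 67.7 CPM in MAflox EtOH (log2 −0.33 ± 0.07). Its difference of −0.30 ± 0.11 (adjusted p = 0.0195) was lost with RLE factors (0.0734), in DESeq2 (0.106), and without MATIP 4-OHT replicate 1 (0.0614) or 2 (0.0744), MATIP EtOH replicate 1 (0.0528), MAflox 4-OHT replicate 1 (0.128) or MAflox EtOH replicate 1 (0.115). Psrc1, a microtubule-associated protein of the mitotic spindle, was at 5.69 and 6.31 CPM in MATIP 4-OHT against 11 and 11.6 CPM in MATIP EtOH. Its MAflox levels were 25.8 and 24.8 CPM with 4-OHT against 12.3 and 12.2 CPM with EtOH. It fell by 0.91 ± 0.11 on the log2 scale in MATIP cells and rose by 1.05 ± 0.10 in MAflox cells, the most negative difference of all members (−1.95 ± 0.15, adjusted p = 2.47e-09).

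Mitosis genes as a list gave the setting for these: all 20 tested fell in MATIP cells (median log2 −1.45), with Ube2c at −2.40 ± 0.07 and Cdc20 at −2.21 ± 0.06. In MAflox cells 8 of 20 fell and 4 rose (median −0.09), with Cenpe at −1.19 ± 0.06 and Plk1 at −0.89 ± 0.06. Among all tested genes 38.6% fell and 37.5% rose in MATIP cells, and 32.1% fell and 33.1% rose in MAflox cells. The responses of 19 of the 20 were lower in MATIP than in MAflox cells and 1 was higher, where 33.6% and 28.3% of all tested genes were.

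Gdf15, a secreted stress cytokine of the TGF-beta family, had the highest fold of any member in MATIP cells. It was at 78.7 and 78.5 CPM in MATIP 4-OHT against 1.59 and 1.98 CPM in MATIP EtOH, and at 3.74 and 2.14 CPM in MAflox 4-OHT against 0.318 and 0.513 CPM in MAflox EtOH. The 4 groups did not overlap, and the MATIP EtOH libraries lay below both MAflox 4-OHT libraries. Gdf15 rose 43.6-fold in MATIP (log2 5.45 ± 0.17) and 6.96-fold in MAflox cells (2.80 ± 0.28), a difference of 2.65 ± 0.42 (adjusted p = 2.11e-05).

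The sestrins, which restrain the growth kinase complex mTORC1, did not move together. Sesn1 fell in both lines, to 22 and 21.8 CPM in MATIP 4-OHT against 33 and 33.5 CPM in MATIP EtOH (log2 −0.60 ± 0.08), and to 31.8 and 31.9 CPM in MAflox 4-OHT against 46.6 and 46.7 CPM in MAflox EtOH (log2 −0.55 ± 0.07). Sesn2 rose in MATIP cells, to 46.9 and 43.7 CPM with 4-OHT against 26.8 and 28.3 CPM with EtOH (log2 0.72 ± 0.08). In MAflox cells Sesn2 had 25.1 and 23.2 CPM with 4-OHT against 27.5 and 31.1 CPM with EtOH (log2 −0.28 ± 0.09, adjusted p = 0.00847), a fall lost without MAflox 4-OHT replicate 2 (adjusted p = 0.109) or MAflox EtOH replicate 2 (0.139) and with the loess trend removed (log2 −0.04, adjusted p = 0.695). The Sesn2 responses differed by 1.0 ± 0.12 (adjusted p = 8.06e-07).

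Ak1, an adenylate kinase, rose in MATIP cells, where it had 7.13 and 6.11 CPM with 4-OHT against 2.04 and 2.18 CPM with EtOH (log2 1.64 ± 0.19). Its MAflox libraries overlapped, at 5.62 and 5.27 CPM with 4-OHT and 5.43 and 4.37 CPM with EtOH (log2 0.16 ± 0.18, adjusted p = 0.458), and the sign turned with the smooth and its mean removed (−0.25, adjusted p = 0.232). Abhd4, a lipase of N-acyl phospholipids, rose in both lines, to 45.4 and 46.5 CPM in MATIP 4-OHT against 39.3 and 38.9 CPM in MATIP EtOH (log2 0.23 ± 0.07) and to 47.9 and 47 CPM in MAflox 4-OHT against 36.4 and 38.9 CPM in MAflox EtOH (0.33 ± 0.07). With the smooth and its mean removed the MATIP change was −0.25 (adjusted p = 0.00315) and the MAflox change 0.02 (adjusted p = 0.848). Ddit4l, an inhibitor of mTOR signalling, was under the count filter, with 8 and 4 counts in MATIP 4-OHT, 4 and 6 in MATIP EtOH, 4 and 2 in MAflox 4-OHT and 6 and 10 in MAflox EtOH.

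DNA repair genes parted within nucleotide excision repair. Xpc, which senses the damage, was at 39.4 and 42.8 CPM in MATIP 4-OHT against 98 and 91.7 CPM in MATIP EtOH, and at 116 and 119 CPM in MAflox 4-OHT against 93.1 and 92.2 CPM in MAflox EtOH. The EtOH libraries of the lines overlapped, and 4-OHT libraries lay below them in MATIP and above them in MAflox cells. Xpc fell by 1.20 ± 0.06 on the log2 scale in MATIP cells (adjusted p = 1.92e-12) and rose by 0.34 ± 0.06 in MAflox cells, and the difference of −1.54 ± 0.09 had the smallest p of any member (3.3e-11). Ercc5, the endonuclease that makes the 3′ cut in the same pathway, rose in MATIP cells, to 16.6 and 18.3 CPM with 4-OHT against 8.37 and 8.17 CPM with EtOH (log2 1.08 ± 0.12). The MAflox libraries had 9.76 and 8.41 CPM with 4-OHT against 10.4 and 10.4 CPM with EtOH (log2 −0.20 ± 0.12, adjusted p = 0.169), and the difference of 1.28 ± 0.17 passed. That MAflox change was a called fall with the smooth and its mean removed (log2 −0.35, adjusted p = 0.0154).

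Polk, a polymerase that copies past damaged bases, fell in MATIP cells to 13.6 and 15.3 CPM with 4-OHT against 17.4 and 20.8 CPM with EtOH (log2 −0.41 ± 0.11), a call lost without MATIP 4-OHT replicate 1 (adjusted p = 0.0635, log2 −0.29). In MAflox cells it rose, to 30.2 and 34.8 CPM with 4-OHT against 21.6 and 21.8 CPM with EtOH (0.58 ± 0.10). Rrm2b, a p53-induced subunit of ribonucleotide reductase, rose in MATIP cells, to 19.1 and 19.4 CPM with 4-OHT against 13.7 and 13.4 CPM with EtOH (0.51 ± 0.10), a call lost with the smooth and its mean removed (log2 0.15, adjusted p = 0.183). In MAflox cells Rrm2b had 19 and 20.9 CPM with 4-OHT against 16 and 17.7 CPM with EtOH (log2 0.24 ± 0.10, adjusted p = 0.0361), which was lost in DESeq2 (0.0711), with the loess trend removed (0.0548) and without MAflox 4-OHT replicate 2 (0.168) or MAflox EtOH replicate 1 (0.24), and was −0.01 with the smooth and its mean removed.

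Zfp365, a zinc finger protein linked to genome stability, was low throughout, at 0.853 and 0.513 CPM in MATIP 4-OHT against 0.261 and 0.234 CPM in MATIP EtOH and 1.2 and 2.37 CPM in MAflox 4-OHT against 0.977 and 0.855 CPM in MAflox EtOH. Its MATIP rise of 1.45 ± 0.54 (adjusted p = 0.0207) was lost without MATIP 4-OHT replicate 1 (0.148) or MATIP EtOH replicate 2 (0.0767), and with the smooth and its mean removed (0.0916). The MAflox change of 0.96 ± 0.45 did not pass (adjusted p = 0.0659) but did without MAflox 4-OHT replicate 1 (log2 1.38, adjusted p = 0.0176), with no count filter (0.0383), in a fit to the MAflox libraries (0.0263) and with the loess trend removed (0.0431).

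Levels of different members can be set side by side only per length of exon. Per kilobase of annotated exon (CPM per kb, group means), Ccng1 and Bax were the most abundant in every group, at 110 and 77.4 in MATIP 4-OHT, 62.9 and 74.1 in MATIP EtOH, 122 and 110 in MAflox 4-OHT and 73.4 and 77.3 in MAflox EtOH. Pmaip1 came next in all groups but MAflox 4-OHT, where Mdm2 was at 25.1 and Pmaip1 at 24.2 CPM per kb. Gdf15 ranked 4 among the 32 members in MATIP 4-OHT, at 42.4 CPM per kb, but 25 in MATIP EtOH, 24 in MAflox 4-OHT and 27 in MAflox EtOH. Plk2 ranked 15 in MATIP 4-OHT and 27, 28 and 28 in MATIP EtOH, MAflox 4-OHT and MAflox EtOH. Summed over the 32 members, the level was 1743 and 1745 CPM in MATIP 4-OHT against 1152 and 1146 CPM in MATIP EtOH, and 1638 and 1687 CPM in MAflox 4-OHT against 1168 and 1196 CPM in MAflox EtOH. These sums are not divided by length and are weighted toward members with many counts, such as Ccng1 and Mdm2. They do not give the change of a typical member.

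Of the 10 members with an exact p53 half-site near a start 9 were tested, and they moved in both directions. In MATIP cells 3 of them rose and 4 fell, with log2 changes of −0.98 to 1.35 and a median of 0.06. Of the 13 tested members with a window and no exact half-site 11 rose and 2 fell (−0.91 to 5.45, median 1.45). Of all tested genes 37.5% rose and 38.6% fell there. In MAflox cells 6 of the 9 rose and 3 fell (median 0.33), and 8 of the 13 rose and 2 fell (median 0.96), where 33.1% of all tested genes rose and 32.1% fell. Perp, Trp53inp1 and 5 further members have no window, and this split was not tested. Members without an exact match, Bbc3 among them, may still hold a mismatched site or a site outside the window.

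The gene of p53 itself, Trp53, fell in both lines while most of the members rose. It was at 57.6 and 61.2 CPM in MATIP 4-OHT against 203 and 194 CPM in MATIP EtOH, and at 103 and 91.4 CPM in MAflox 4-OHT against 210 and 201 CPM in MAflox EtOH. Trp53 fell by 1.74 ± 0.07 on the log2 scale in MATIP and by 1.08 ± 0.06 in MAflox cells, and the difference of −0.66 ± 0.09 passed (adjusted p = 3.78e-06). Mdm4, the partner of Mdm2 that blocks p53 activity, did not pass in either line (log2 −0.03 ± 0.06, adjusted p = 0.728 in MATIP and −0.09 ± 0.07, adjusted p = 0.23 in MAflox). Of 23 genes for p53 and its regulators, Kat5 and Trp53 among them, 7 rose and 11 fell in MATIP cells and 3 rose and 10 fell in MAflox cells. The 11 include Kat5 itself, which is floxed in MATIP cells. In MAflox cells Kat5 rose (log2 0.50 ± 0.07). The shares of all tested genes were 37.5% up and 38.6% down in MATIP cells and 33.1% up and 32.1% down in MAflox cells. Atr, a kinase that signals replication stress, fell by 0.70 ± 0.08 in MATIP and by 1.30 ± 0.08 in MAflox cells.

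A second list of p53 targets held 28 genes, none of them members, and was likewise chosen with earlier results of these data known. In MATIP cells 16 of 26 tested rose and 8 fell (median log2 0.79), where 37.5% of all tested genes rose and 38.6% fell. The autophagy gene Trp53inp2 was at 3.67 ± 0.10 there and Ier5 at 2.49 ± 0.08. In MAflox cells 19 of 26 rose and 2 fell (median 0.62), where 33.1% of all tested genes rose and 32.1% fell. Cd82, a tetraspanin, was at 1.83 ± 0.08 there and Ier5 was 3.04-fold higher. Cdkn1a, the cell cycle inhibitor p21 and the best known p53 target, was looked up for that role. It was at 252 and 265 CPM in MATIP 4-OHT against 64.4 and 89.7 CPM in MATIP EtOH, and at 407 and 384 CPM in MAflox 4-OHT against 110 and 123 CPM in MAflox EtOH. Its rises of 1.74 ± 0.10 in MATIP and 1.76 ± 0.10 in MAflox cells did not differ past the threshold (−0.02 ± 0.14, adjusted p = 0.923).

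Lists of pathways that share members were set beside these. Among all tested genes 37.5% rose and 38.6% fell in MATIP cells, and 33.1% rose and 32.1% fell in MAflox cells. Of 14 immediate-early genes, Btg2 and Plk2 among them, all 14 rose in MATIP cells (median log2 3.98), with Klf6 at 4.16 ± 0.07 and Fos at 4.59 ± 0.14. In MAflox cells 12 of 14 rose and none fell (median 2.22), with Klf6 at 2.34 ± 0.07 and Dusp1 at 2.58 ± 0.14. Of 14 ATF4 and CHOP stress genes, Gdf15 and Sesn2 among them, 6 rose and 7 fell in MATIP cells, with Slc7a11, the cystine transporter, at 4.21 ± 0.08 and Phgdh, of serine synthesis, at −2.28 ± 0.06. In MAflox cells 7 rose and 5 fell, with Slc7a5 at −1.31 ± 0.06 and Slc7a11 at 1.54 ± 0.08. Whether these signals or p53 moved the shared members was not tested.

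**Figure D4:**
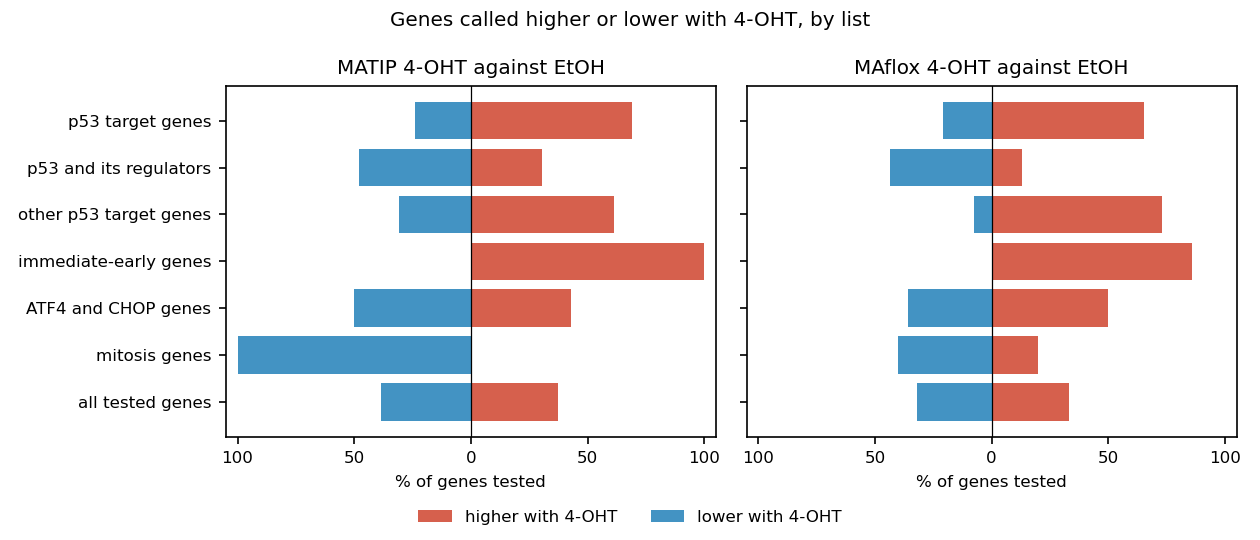
Share of tested genes (%) that rose (right, red) or fell (left, blue) with 4-OHT in MATIP and in MAflox cells, for the members, 5 other lists and all 13722 tested genes. Members rose in 69% and 65.5% of those tested in MATIP and MAflox cells, against 37.5% and 33.1% of all tested genes.

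Responses differed between the lines for 20 of the 29 members, against 61.9% of all tested genes. The MATIP response was the higher in 12 of these, against 28.3% of tested genes, and the lower in 8, against 33.6%. Higher responses in MATIP cells were those of Ak1, Ercc5, Fbxw7, Gdf15, Mdm2, Perp, Phlda3, Plk2, Pmaip1, Sesn2, Trp53inp1 and Zmat3. Lower ones were those of Aen, Apaf1, Bax, Fas, Gtse1, Polk, Psrc1 and Xpc. Among the 9 that did not pass were Btg2, Ccng1 and Bbc3, whose differences had SE of 0.13, 0.08 and 0.18 on the log2 scale.

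With the solvent alone the lines differed in some members. After 4 days in EtOH 13 of 29 differed, 4 higher and 9 lower in MATIP than in MAflox cells, where 32% of all tested genes differed, 20.3% higher and 11.7% lower. At least 2-fold, 2 were higher and 3 lower, against 4.49% and 3.58% of tested genes. Perp was furthest apart, at 0.326 and 0.201 CPM in MATIP EtOH against 6.54 and 6.38 CPM in MAflox EtOH (log2 −4.64 ± 0.22), and Ak1 (−1.21 ± 0.19) and Sesn1 (−0.49 ± 0.07) were lower too. Gdf15 (2.08 ± 0.30), Fas (1.06 ± 0.14) and Btg2 (0.93 ± 0.10) were higher in MATIP EtOH. The EtOH baseline and the 4-OHT contrasts share their EtOH libraries, so a low baseline and a large fold, as in Perp, rest on the same values.

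In the authors' deposited table, made with DESeq2 per the submitters' processing notes, 18 members were higher and 6 lower in MATIP cells, and 18 higher and 6 lower in MAflox cells. All of these were called in the same direction here, and the calls made here and not there were Apaf1, Tnfrsf10b and Zfp365 in MATIP cells and Rrm2b in MAflox cells. Shares over all genes by the authors' values are not given here.

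All members are annotated as protein-coding. On mm10, per GENCODE M21, Mdm2 lies at 117688875 to 117710758 of chromosome 10, Trp53inp1 at 11156431 to 11174379 of chromosome 4, Perp at 18845020 to 18857073 of chromosome 10, Plk2 at 110395046 to 110400844 of chromosome 13, Gdf15 at 70629393 to 70632456 of chromosome 8 and Xpc at 91489305 to 91515888 of chromosome 6. Counts of Bax, Ei24 and Rrm2b are uncertain where they share exon bases with another gene, 192 with Gm45808 on the same strand, 324 with Gm26787 and 734 with Gm49085 on the opposite strand. For the opposite-strand overlaps this turns on the strand setting of the counting, which is not given in the sources used here, whereas bases shared on the same strand cannot be told apart by strand.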

How the data were processed

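Per the submitters' processing notes, reads were handled with Trimmomatic 0.38.0, HISAT2 2.1.0 and featureCounts 1.6.4 on mm10. The strand setting and the annotation used for counting are not known here. The deposited table holds whole-number counts per gene symbol, not normalized. Of its values from 1 to 6, 79.4% are even, as when both mates of a pair are counted, so counting limits are approximate. It has 23 empty columns. The authors' second table holds, per the file headers, log2 fold changes and adjusted p-values for each line.

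Groups and replicate numbers came from the sample titles. Genes passing filterByExpr by group (minimum count 10, minimum total 15; 13722 genes) were tested with edgeR 4.0.16 (R 4.3.3): TMM scaling, quasi-likelihood fit with 1 coefficient per group over all 8 libraries, Benjamini-Hochberg adjustment over all tested genes, threshold 0.05. SE is the log2 change over the square root of F. The 2 libraries of each group differed beyond counting error (chi-square per degree of freedom 7.33 to 13.6) and were kept as separate replicates.

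Alternatives were DESeq2 1.42.0, RLE factors, no filter, own-line fits, a replicate block, removal of a smooth (mgcv) of fold changes on length and GC of the longest transcript (GENCODE M21, known for 96.2% of tested genes), its mean included, and each library left out. A loess trend removed without its level was added after those values had been seen. Tests were first run on simulated data. Members and lists were chosen with earlier results of these data known. Named genes were all members in both 4-OHT contrasts, called members for the difference, the 6 smallest p in EtOH, and the 2 smallest p of each other list. Motif searches used RefSeq promoter windows of GRCm38.p6, and the CRE, AP-1 and CHR motifs were chosen after the data were seen.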

Additional observations from a re-analysis of the deposited data

Results flagged for a closer look

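The response to 4-OHT differed between the lines for 20 members by the test of the difference itself (edgeR quasi-likelihood, adjusted p under 0.05). By the same test 61.9% of all tested genes differed, 28.3% with a higher and 33.6% with a lower response in MATIP cells. On the log2 scale, MATIP minus MAflox, the positive differences were 3.72 for Perp, 2.66 for Plk2, 2.65 for Gdf15, 1.49 for Ak1, 1.33 for Zmat3, 1.29 for Fbxw7, 1.28 for Ercc5, 1.25 for Phlda3, 1.0 for Sesn2, 0.83 for Pmaip1, 0.63 for Trp53inp1 and 0.43 for Mdm2. The negative ones were −1.95 for Psrc1, −1.54 for Xpc, −0.99 for Polk, −0.66 for Fas, −0.65 for Aen, −0.45 for Bax, −0.43 for Apaf1 and −0.30 for Gtse1. With 2 libraries a group, no test for a single outlying library was made.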

How the results depend on the processing

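Called members numbered 27 in MATIP, 25 in MAflox, 20 for the difference and 13 in EtOH, and ranged over 24 to 27, 23 to 25, 19 to 20 and 9 to 13 with 1 library left out. A call that also needed a 2-fold change left 13, 8, 10 and 5. For the difference these were 8 higher and 2 lower, against 14.9% and 11.4% of all tested genes. The 2-fold shares for the other comparisons are given above. With a replicate block the counts were 27, 25, 20 and 12, and no named member's call changed. Replicate numbers were not used as pairs, since deviations of same-numbered libraries correlated at −0.0391 to 0.0339. With the smooth on length and GC and its mean removed the counts were 24, 22, 24 and 14, and with the loess trend, chosen after seeing the data, 26, 24, 21 and 13. Shares of all tested genes are given in this report for the main fit only. Of 1408 values of named members under alternatives, 1327 kept direction and side of the threshold, 50 lost the call, 10 gained it and 21 changed sign. Of these 21, the smooth with its mean gave, without and with a replicate block, Abhd4 −0.25 and −0.26, Bax −0.67 and −0.68, Bbc3 −0.06 and −0.07, Ei24 −0.38 and −0.38 and Tnfrsf10b −0.06 and −0.05 in MATIP cells. In MAflox cells it gave Ak1 −0.25 and −0.24, Ei24 −0.18 and −0.18, Rrm2b −0.01 and −0.01 and Zmat3 0.22 and 0.23. Zmat3 in MAflox cells was 0.38 with the loess trend, 0.39 with the block as well, 0.06 without MAflox EtOH replicate 1 and −0.28 without MAflox EtOH replicate 2. Removing the mean shifts every gene by construction, and for the other changes the cause was not tested. RLE factors moved the median gene by 0.073 in MATIP and 0.00064 in MAflox cells. The fit to the libraries of 1 line has no value for the difference. With 2 libraries a group small differences may be missed, and depth limits Zfp365, Eda2r, Ddit4l and Trp73.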
